A study of Mus musculus with 6 samples.

Results

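The 36 genes described here encode collagen chains and were taken as a family, by gene symbol, out of 18193 genes measured in lung cells of Bmi1 wild-type and Bmi1 mutant mice. Every probe set that the platform annotation gives to 1 of these symbols alone was included, which gave 69 of 34945 such probe sets, and each gene was represented by its brightest probe set, taken as the highest mean over the 6 arrays. The family was divided into 10 fibrillar collagens, 8 collagens of the basement membrane and 18 other collagens. All 36 symbols were found on the array.

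The wild-type group held 3 arrays of mice labelled Bmi1 wild-type, and the other group held 3 arrays of mice whose title says mutant and whose genotype label says Bmi1 null. All mice were females of 4 months on a mixed Bl6/129 background, and the labels name no treatment of the mice. Lungs were digested with dispase and collagenase, an enzyme that cuts collagen protein, and live cells negative for CD31 and CD45 were sorted and used without culture. The RNA was amplified before it was hybridised to Affymetrix Mouse Genome 430 2.0 arrays. The arrays of a genotype are named biological replicates. Whether an array holds RNA of 1 mouse or of several, and which part of Bmi1 is missing, is not stated, so the p values measure only the spread between the arrays at hand.

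Collagens are matrix proteins in which chains rich in glycine wind around each other into a trimer. Fibrillar collagens assemble into the fibres that give lung tissue its tensile strength, and type IV collagen forms the sheet-like network of basement membranes on which alveolar epithelium and capillaries rest. Other members coat or link fibrils, anchor epithelium or span the cell membrane. In lung, fibroblasts, smooth muscle cells and pericytes are known as the main makers of the fibrillar and type VI chains, and Bmi1 encodes a subunit of a Polycomb complex that keeps genes silent.

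The deposited values were scaled so that the trimmed mean signal of each array was 500.002, and the median signal per array lay between 97.42 and 114.2. The signal of Bmi1 was not lower on mutant-labelled arrays, where 1 probe set gave 1446 ± 151 against 1047 ± 102 in wild type (SD, n = 3 each) and the other 665 ± 147 against 588 ± 83.4, so every direction below rests on the labels. Markers of the cells that the sort was meant to leave out were bright in both genotypes. Ptprc, which encodes CD45, read 7716 ± 966 in wild type and 5767 ± 852 on mutant-labelled arrays, and Pecam1, which encodes CD31, read 2247 ± 506 and 2939 ± 247.

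The start regions of 3 collagen genes are shown here because their values come up repeatedly below: the type I chain gene Col1a2 and the type III chain gene Col3a1, each read by probe sets that gave unlike differences, and Col4a2, which shares its start region with its neighbour Col4a1. Each window runs from 250 bases before to 50 bases after the start of transcription as RefSeq gives it in build GRCm38.p6, and lies on the plus strand. The Col1a2 window is chr6:4505368-4505667, the Col3a1 window chr1:45311288-45311587 and the Col4a2 window chr8:11312555-11312854. Capitals mark matches to CCAAT or its reverse complement ATTGG in Col1a2 and to TATAAA or its reverse complement TTTATA in Col3a1. In Col4a2 they mark the 78 bases that also lie in the window of Col4a1, which is read from the opposite strand.
Col1a2: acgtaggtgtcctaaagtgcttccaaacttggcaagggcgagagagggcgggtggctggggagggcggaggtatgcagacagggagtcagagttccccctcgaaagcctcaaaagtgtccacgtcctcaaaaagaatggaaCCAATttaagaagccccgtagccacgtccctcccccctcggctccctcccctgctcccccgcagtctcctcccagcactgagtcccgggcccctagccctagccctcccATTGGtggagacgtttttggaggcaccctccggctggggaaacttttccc
Col3a1: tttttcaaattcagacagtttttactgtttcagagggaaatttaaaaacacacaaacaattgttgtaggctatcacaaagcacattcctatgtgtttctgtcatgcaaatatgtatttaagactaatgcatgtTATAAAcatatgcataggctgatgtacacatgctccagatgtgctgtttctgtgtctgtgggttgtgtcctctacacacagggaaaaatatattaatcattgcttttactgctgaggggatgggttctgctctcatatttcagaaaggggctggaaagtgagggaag
Col4a2: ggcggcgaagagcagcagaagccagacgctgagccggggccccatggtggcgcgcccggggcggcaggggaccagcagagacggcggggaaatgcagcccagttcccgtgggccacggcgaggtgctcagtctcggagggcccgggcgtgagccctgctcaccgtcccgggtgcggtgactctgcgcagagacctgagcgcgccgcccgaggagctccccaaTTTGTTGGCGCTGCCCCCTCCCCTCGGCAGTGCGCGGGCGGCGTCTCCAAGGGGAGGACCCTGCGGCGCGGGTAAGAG

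A window was found for 29 of the 36 genes, 32 windows in all, and none for Col1a1, Col2a1, Col4a3, Col5a2, Col9a3, Col12a1 and Col14a1. CCAAT or ATTGG occurred in 12 of the 32 windows (37.5%), against 37.4% of the 32851 windows of all genes. TATAAA or TTTATA occurred in 5 (15.6%), against 13.6% of all windows. Both strands were searched, and a match to 1 motif could overlap a match to the other. The CpG count, the number of C bases followed by G, had a median of 12.5 in the collagen windows and 7.0 in all windows. It ranged from 0 in Col3a1 and in 1 window of Col9a1 to 37 in Col4a1. Col5a1 had 34 and Col4a2 had 33. A match in these windows is a description of letters and not of a binding site.

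Collagen genes lay mostly above their wild-type level on mutant-labelled arrays, and 1 of them, the type I chain gene Col1a1, passed the test. Of the 36 genes, 30 had a log2 difference above 0 and the median was 0.46, while over all 18193 genes 50.7% lay above 0 and the median was 0.0059. The test was limma's, on log2(signal + 16), with Benjamini-Hochberg adjustment over all genes and a threshold of 0.05 for the adjusted p. The log2 differences given here are on that scale, mutant-labelled minus wild type, and understate the change of genes with low signal. It called 1 collagen gene higher, against 0.412% of all genes, and 0 lower, against 0.511% of all genes. At an unadjusted limma p under 0.05, 12 collagen genes were higher, against 7.51% of all genes. At the same threshold 1 of the 36 collagen genes was lower, against 1281 of all 18193 genes. Wild-type and mutant-labelled arrays did not overlap in 13 collagen genes that were higher on all mutant-labelled arrays, against 10.4% of all genes. They also did not overlap in 1 gene that was lower, against 10.0% of all genes. The call of Col1a1 was lost whichever of the 6 arrays was left out, with limma adjusted p values from 0.0725 to 0.158, while its log2 difference ranged from 1.207 to 1.497.

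**Figure D1:**
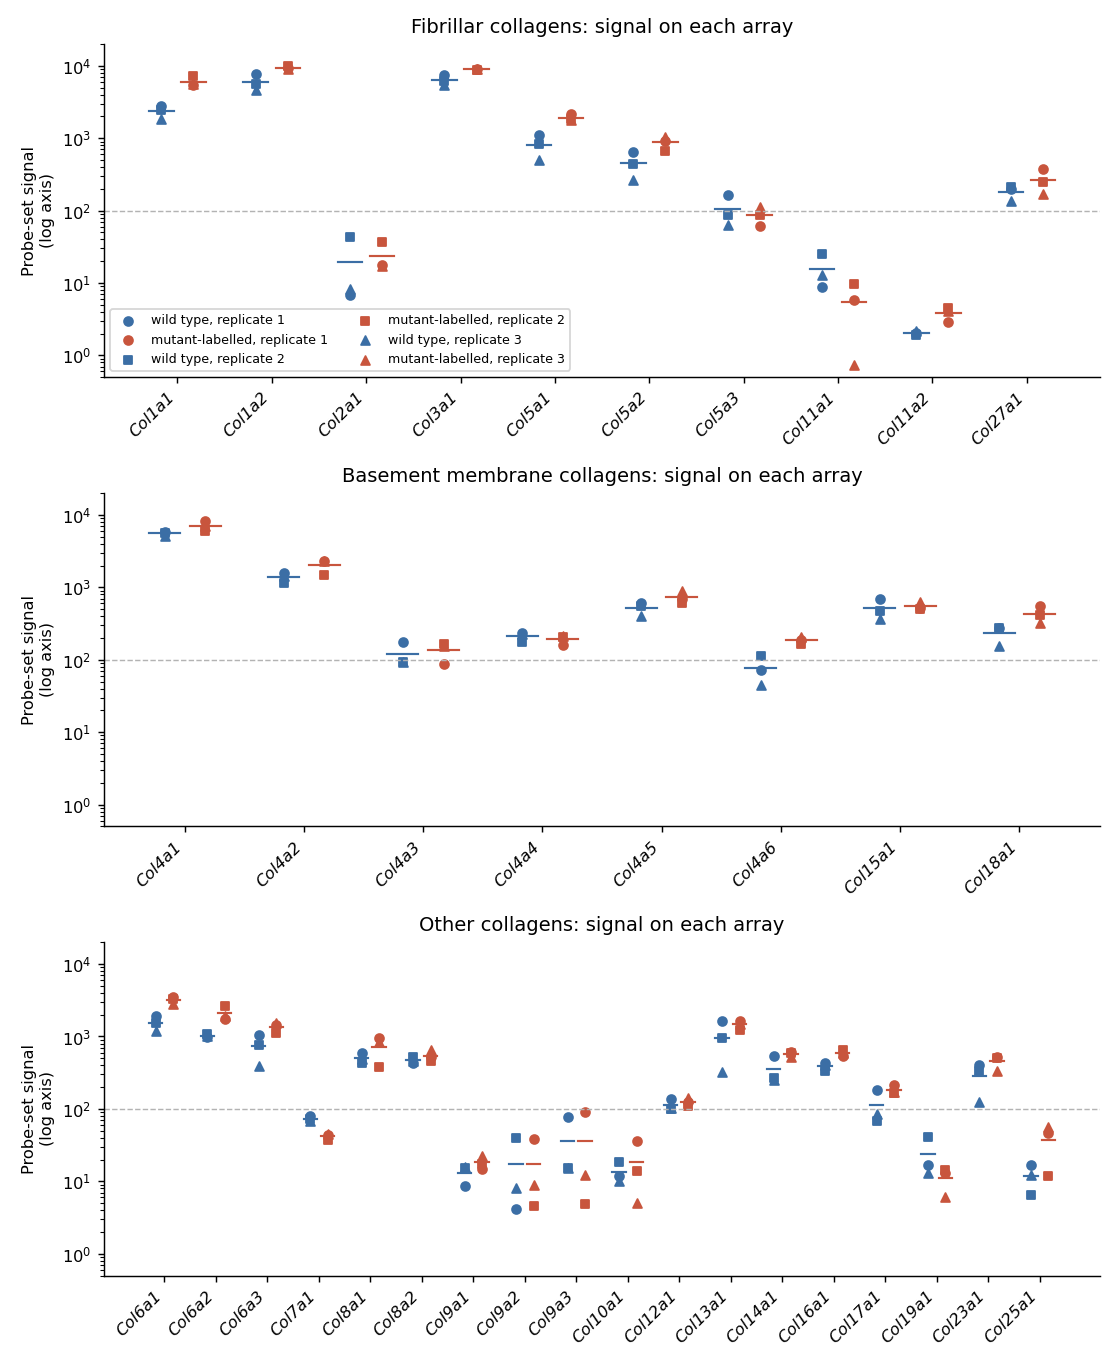
Probe-set signal (log axis) of the 36 collagen genes on each of the 6 arrays, in panels for the fibrillar, basement membrane and other collagens. Blue points are wild-type and red points mutant-labelled arrays, the shape gives the replicate, horizontal bars are group means and the dashed line marks a signal of 100. Col1a1 lay between 1831 and 2746 in wild type and between 5406 and 7224 on mutant-labelled arrays, and 10 genes had both group means below the dashed line.

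Of the 36 genes, 10 had a mean signal below 100 in both genotypes: Col2a1, Col11a1, Col11a2, Col7a1, Col9a1, Col9a2, Col9a3, Col10a1, Col19a1 and Col25a1. Among them are the chains known from cartilage (types II, IX, X and XI). Their log2 differences ran from -0.62 in Col7a1 to 0.85 in Col25a1. Detection calls were not used here, so a low signal is given as measured and is not called absent.

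Among the fibrillar collagens, the chains of types I, III and V (Col1a1, Col1a2, Col3a1, Col5a1 and Col5a2) read higher on every mutant-labelled array than on any wild-type array, and Col1a1 passed the test. Col1a1 encodes the main chain of type I collagen, the most abundant fibre of lung interstitium. Its signals were 2746, 2455 and 1831 on wild-type arrays 1 to 3 and 5406, 7224 and 5569 on mutant-labelled arrays. The lowest mutant-labelled array was above the highest wild-type array. Col1a1 rose from 2344 ± 467 to 6066 ± 1006 (SD, n = 3 each), 2.59 times the wild-type mean, with a log2 difference of 1.37 ± 0.22 (SE, limma adjusted p = 0.0482). The 95% confidence interval of that difference ran from 0.85 to 1.89.

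Col1a2 encodes the partner chain of Col1a1 in the type I trimer. It read 7802, 5538 and 4676 in wild type and 9322, 9817 and 9056 on mutant-labelled arrays. The groups did not overlap, although wild-type replicate 1 lay nearer to the mutant-labelled arrays than to wild-type replicate 3. The log2 difference was 0.68 ± 0.22 (SE, n = 3 each, limma adjusted p = 0.230).

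Col3a1 encodes type III collagen, which forms fine fibres together with type I in elastic tissues. It read 7357, 6131 and 5391 in wild type and 8913, 8714 and 9108 on mutant-labelled arrays. The mutant-labelled arrays lay close together, and all were above wild type. The log2 difference was 0.51 ± 0.17 (SE, n = 3 each, limma adjusted p = 0.252).

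Col5a1 and Col5a2 encode chains of type V collagen, which starts fibrils and limits their width. Col5a1 read 1099, 844 and 493 in wild type and 2144, 1833 and 1758 on mutant-labelled arrays, and the log2 difference was 1.29 ± 0.30 (SE, n = 3 each, limma adjusted p = 0.118). Col5a2 read 648, 444 and 265 against 924, 672 and 1048, a log2 difference of 1.00 ± 0.34 (limma adjusted p = 0.252). Both genes were lowest in wild-type replicate 3, and in Col5a2 the highest wild-type array nearly reached the lowest mutant-labelled array. Col5a3, a chain of the same type with a narrower expression, read 166, 85.7 and 63.1 against 62.2, 86.4 and 112. Its groups overlapped, with a log2 difference of -0.17 (95% interval -0.99 to 0.64). Its dimmer probe set was lower on every mutant-labelled array, at 4.10 ± 3.78 against 22.2 ± 15.3, a log2 difference of -0.87.

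Col27a1, a chain known from developing cartilage, read 201, 212 and 137 in wild type and 373, 244 and 171 on mutant-labelled arrays, with overlap and a log2 difference of 0.44. The cartilage chains were dim. Col2a1 read 6.84 to 42.6 in wild type and 17.3 to 37.0 on mutant-labelled arrays, Col11a1 8.71 to 24.8 and 0.732 to 9.64, and Col11a2 1.89 to 2.17 and 2.86 to 4.49. Col11a2 did not overlap between the genotypes, at signals well below the offset of 16. The 10 fibrillar genes had a median log2 difference of 0.48, and 8 of them were above 0.

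**Figure D2:**
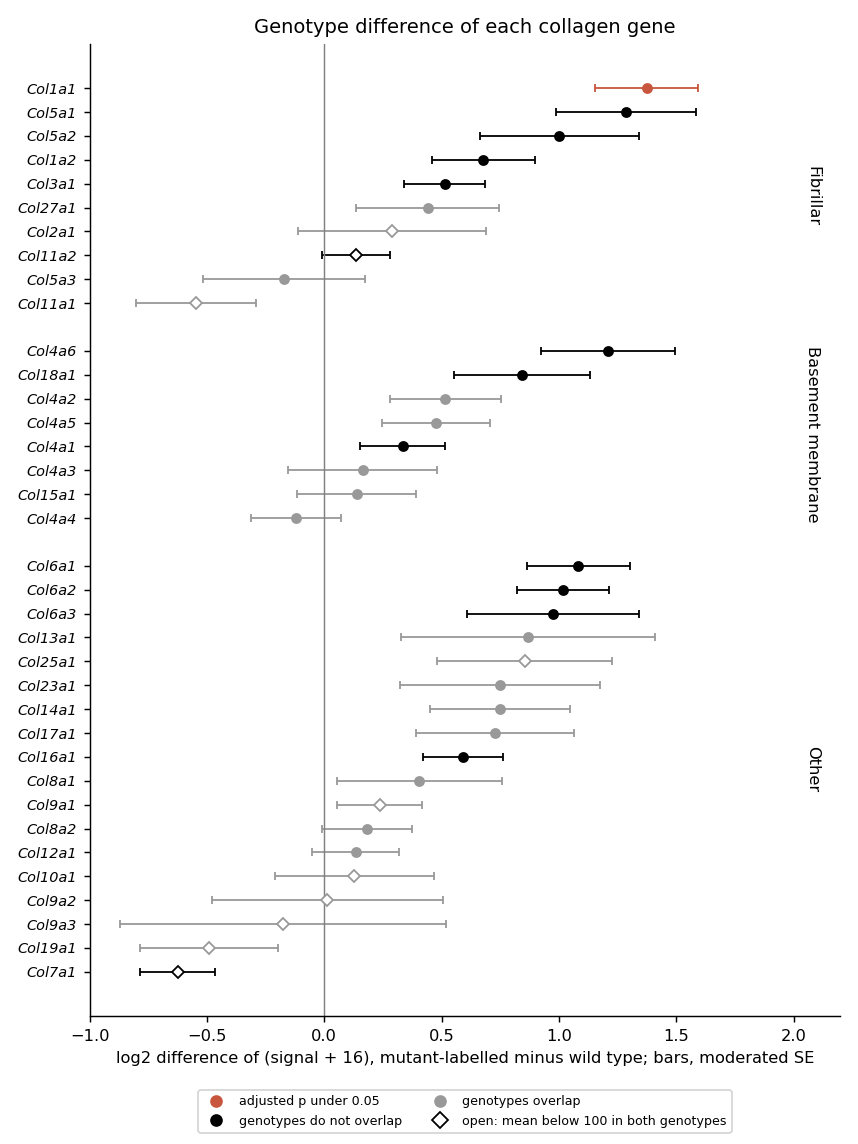
Log2 difference of (signal + 16), mutant-labelled minus wild type, for each collagen gene with limma's moderated SE as bars, ordered by size within the fibrillar, basement membrane and other classes. Red marks an adjusted p under 0.05, black groups that do not overlap, grey groups that overlap, and open symbols a mean signal below 100 in both genotypes. Col1a1 is the red point at 1.37, and the lowest value, of Col7a1, is -0.62.

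Probe sets of the same gene gave unlike differences for several fibrillar chains, and the choice of probe set decided which gene was called. The second probe set of Col1a1 read 1560 ± 575 in wild type and 2880 ± 156 on mutant-labelled arrays (SD, n = 3 each), and its log2 difference was 0.94. The second brightest of 3 probe sets of Col1a2 read 986 ± 284 and 2405 ± 177, a difference of 1.31, which is greater than the 0.68 of its brightest probe set. The dimmer probe set of Col3a1 read 301 ± 44.0 and 881 ± 28.4, a difference of 1.51 against 0.51 in the brighter one. When each probe set was tested by itself with limma, this probe set of Col3a1 was the called one among the 69 (adjusted p = 0.0294), against 0.212% of all probe sets called higher, and Col1a1 had an adjusted p of 0.0664. With the mean of all probe sets of a gene, Col3a1 was called (log2 difference 1.01, limma adjusted p = 0.0453) and Col1a1 was not (1.16, adjusted p = 0.0737).

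The 3 probe sets of Col5a1 gave differences of 1.29, 1.34 and 1.19, and those of Col5a2 gave 1.00 and 1.21. Of the 23 collagen genes with several probe sets, 19 had the same sign in all of them (82.6%), against 52.1% of the 9010 such genes on the array. In 16 (69.6%) all probe sets were above 0, against 23.7% of all such genes. A dimmer probe set gave a greater difference than the brightest in 14 of the 23 (60.9%) and in 56.2% of all such genes. The probe sets of a gene share their RNA and are not replicates.

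**Figure D3:**
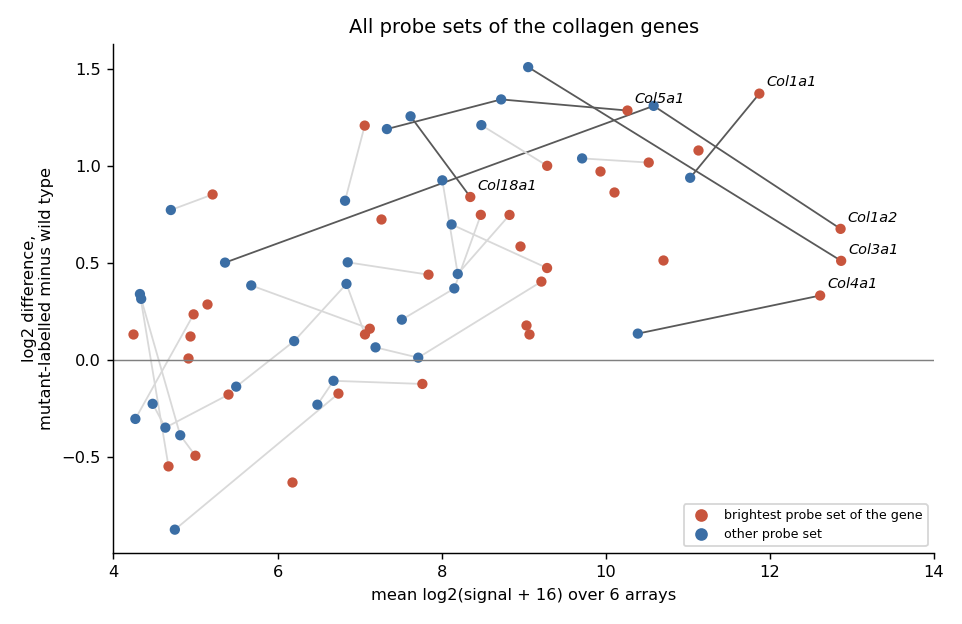
Log2 difference, mutant-labelled minus wild type, of all 69 collagen probe sets against their mean log2(signal + 16) over the 6 arrays. Red points are the brightest probe set of a gene, blue points its other probe sets, lines join probe sets of 1 gene, and named genes have dark lines. Col3a1 lies at 0.51 in its brightest probe set and at 1.51 in the dimmer one, and Col5a1 stays between 1.19 and 1.34.

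In the basement membrane class no gene passed the test, and the differences of the 6 type IV chains ran from -0.12 to 1.21. The limma test called 0 of the 8 genes, with 2 at an unadjusted p under 0.05, and the class median was 0.40, with 7 genes above 0. Col4a1 and Col4a2 encode the chains found in nearly every basement membrane. Col4a1 read 5898, 5646 and 5158 in wild type and 8221, 5948 and 7045 on mutant-labelled arrays, so that the groups were separated by a narrow gap. Its log2 difference was 0.33 ± 0.18 (SE, n = 3 each, limma adjusted p = 0.463). The second probe set of Col4a1 overlapped between the genotypes, at 1267 ± 131 in wild type and 1413 ± 293 on mutant-labelled arrays (SD), a difference of 0.14. Col4a2 read 1577, 1150 and 1433 against 2285, 1467 and 2290, with mutant-labelled replicate 2 among the wild-type arrays. Its log2 difference was 0.52 ± 0.24 (limma adjusted p = 0.381).

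Col4a3 and Col4a4 join Col4a5 in the type IV network of mature alveolar and kidney basement membranes. Col4a3 read 173, 94.0 and 93.9 in wild type and 86.4, 166 and 156 on mutant-labelled arrays, and Col4a4 read 232, 177 and 227 against 161, 207 and 215. Both overlapped between the genotypes, with log2 differences of 0.16 (95% interval -0.59 to 0.91) and -0.12 (-0.58 to 0.33). Col4a5 read 610, 547 and 403 against 695, 600 and 891, a log2 difference of 0.48 with a slight overlap.

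Col4a6 pairs with Col4a5 in the basement membranes of smooth muscle and some epithelia. It read 72.7, 111 and 44.1 in wild type and 189, 166 and 209 on mutant-labelled arrays. The groups did not overlap, and the mean signal was 2.47 times that of wild type. The log2 difference was 1.21 ± 0.29 (SE, n = 3 each, limma adjusted p = 0.121), and that of its second probe set was 0.82.

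Col15a1 and Col18a1 encode collagens that carry sugar side chains and lie at the border of basement membranes, and a fragment of the latter is endostatin. Col18a1 read 277, 272 and 155 against 552, 415 and 324, with no overlap and a log2 difference of 0.84 ± 0.29 (SE, n = 3 each, limma adjusted p = 0.257). Its second probe set gave 1.26. Col15a1 read 694, 472 and 369 against 514, 503 and 628, with overlap and a log2 difference of 0.14.

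Among the other collagens, the type VI chains, which form beaded filaments around cells, were higher on all mutant-labelled arrays. Col6a1 read 1900, 1537 and 1180 in wild type and 3510, 3340 and 2844 on mutant-labelled arrays, and the log2 difference was 1.08 ± 0.22 (SE, n = 3 each, limma adjusted p = 0.0837). Col6a2 read 974, 1066 and 1016 against 1767, 2630 and 1932, a log2 difference of 1.02 ± 0.20 (limma adjusted p = 0.0745). Its wild-type arrays lay close together, and its second probe set gave 1.04. Col6a3 read 1062, 759 and 387 against 1458, 1100 and 1542, a log2 difference of 0.98 ± 0.37 (limma adjusted p = 0.291). The highest wild-type array of Col6a3 came close to the lowest mutant-labelled array.

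Col6a1 and Col6a2 missed the threshold here but passed under some other settings. With genes below the median level left out, the limma adjusted p was 0.0322 for Col6a1 and 0.0264 for Col6a2, and with a variance prior that follows the signal it was 0.0164 and 0.0182. Col6a2 also passed with an offset of 64 (adjusted p = 0.0453) and with median centring (0.0458). Neither gene passed with an offset of 1 (limma adjusted p = 0.155 for Col6a1 and 0.137 for Col6a2) or with a replicate block (0.120 and 0.136). With 1 array left out neither passed, and the lowest limma adjusted p was 0.085 for Col6a1 and 0.12 for Col6a2.

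Fibril-associated collagens sit on the surface of fibres. Col14a1, known from fibroblasts, read 543, 269 and 254 in wild type and 602, 596 and 523 on mutant-labelled arrays, and wild-type replicate 1 lay among the mutant-labelled arrays. Its log2 difference was 0.75 ± 0.30 (SE, n = 3 each, limma adjusted p = 0.318), and its other probe sets gave 0.44 and 0.93. Col16a1 read 435, 338 and 402 against 542, 650 and 598, with no overlap and a log2 difference of 0.59 ± 0.17 (limma adjusted p = 0.187). Col12a1 read 135, 99.3 and 104 against 123, 110 and 141, with overlap and a log2 difference of 0.13. Col19a1 and the type IX chains Col9a1, Col9a2 and Col9a3 were dim, with log2 differences of -0.49, 0.24, 0.01 and -0.18 and overlap in each. In Col9a3, replicate 1 of each genotype read 76.7 and 91.1 while the other arrays lay between 4.92 and 15.3.

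Col7a1, the collagen of the fibrils that anchor epithelium to the tissue beneath, was lower on all mutant-labelled arrays. It read 80.6, 73.1 and 67.1 in wild type and 44.1, 36.9 and 45.3 on mutant-labelled arrays, a wild-type mean 1.75 times that of the mutant-labelled arrays. The log2 difference was -0.62 ± 0.16 (SE, n = 3 each, limma adjusted p = 0.142), and both means lay below 100. Basal cells are a known source of this chain in airways, and their markers Krt5, Trp63 and Krt14 had log2 differences of -0.67, 0.54 and 0.78, with signals between 5.73 and 135. Their part in the result was not tested.

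Of the membrane-spanning collagens, Col13a1, Col23a1 and Col17a1 were spread widely in wild type, and Col25a1 on mutant-labelled arrays. Col13a1, a chain at cell contacts, read 1637, 938 and 320 in wild type and 1659, 1243 and 1510 on mutant-labelled arrays. Wild-type replicate 1 was among the mutant-labelled arrays, and the log2 difference was 0.87 ± 0.54 (SE, n = 3 each, limma adjusted p = 0.528). Col23a1 read 408, 330 and 125 against 520, 509 and 334, a log2 difference of 0.75 with overlap. Col17a1, part of the hemidesmosome of epithelium, read 185, 68.0 and 84.4 against 214, 165 and 169, a log2 difference of 0.73 with overlap. Col25a1, known from neurons, read 16.7, 6.54 and 12.2 against 46.1, 11.7 and 55.4, a log2 difference of 0.85 with overlap at low signal. The second probe set of Col25a1 gave 0.77.

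The network-forming short collagens of types VIII and X overlapped between the genotypes. Col8a1, known from vessel walls, read 587, 434 and 491 in wild type and 948, 376 and 831 on mutant-labelled arrays. Its brightest probe set gave a log2 difference of 0.41 and the others 0.01 and 0.07. Col8a2 read 434, 526 and 465 against 519, 458 and 658, a difference of 0.18, and Col10a1, the chain of hypertrophic cartilage, was dim with a difference of 0.13. The 18 other collagens had a median log2 difference of 0.50, with 15 above 0. Their median was 0.285 without wild-type replicate 3, and those of the fibrillar and basement membrane classes were 0.33 and 0.29.

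Some collagen genes lie next to each other with no other protein-coding gene between them in the RefSeq table of assembly GRCm38.p6. The 6 such pairs gave log2 differences of 1.02 and 1.08 for Col6a2 and Col6a1, 0.33 and 0.52 for Col4a1 and Col4a2, and 0.51 and 1.00 for Col3a1 and Col5a2. In the other pairs they were 1.21 and 0.48 for Col4a6 and Col4a5, -0.12 and 0.16 for Col4a4 and Col4a3, and 0.24 and -0.49 for Col9a1 and Col19a1. Whether the members of a pair differed was not tested. A further 6 collagen genes on the array, which are not among the 36, had 0 called by limma, 1 higher and 1 lower at an unadjusted p under 0.05, and a median log2 difference of 0.02. Of these 6, 5 had a mean signal below 100 in both genotypes. The 10 such genes among the 36 had a median of 0.07.

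Wild-type replicates 1 and 3 often lay at opposite ends of the wild-type group in these genes. Replicate 3 was the lowest wild-type array in 21 of the 36 collagen genes (58.3%), against 32.7% of all genes. Replicate 1 was the highest wild-type array in 25 (69.4%), against 34.5% of all genes. The summed signal of the 36 genes was 38088, 30823 and 25731 on wild-type arrays 1 to 3 and 52020, 49391 and 49841 on mutant-labelled arrays, so the groups did not overlap. By class, the fibrillar genes did not overlap in summed signal (12879 to 20038 in wild type, 26844 to 28641 on mutant-labelled arrays) or in mean log2 value. The basement membrane genes overlapped slightly in summed signal (7883 to 9534 and 9470 to 12703) but not in mean log2 value (8.52 to 9.01 and 9.12 to 9.33). The other collagens did not overlap in summed signal (4970 to 8515 and 11237 to 12146) but did in mean log2 value (7.11 to 7.68 and 7.63 to 8.06), so the separation of these 2 classes depended on the measure. Without wild-type replicate 3, 28 of the 36 genes lay above 0 and 7 had an unadjusted limma p under 0.05, against 13 with all arrays. Over all genes the number with such a p fell too, from 2647 to 2026. The collagen number was 17 and 10 without wild-type replicates 1 and 2. It was 8, 17 and 9 without mutant-labelled replicates 1 to 3.

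Markers of several cell types were mostly above 0 as well, among them those of cells known to make collagen. Of 16 fibroblast markers, none of them a collagen gene, 15 lay above 0 and limma called 0, with 5 higher and 0 lower at an unadjusted p under 0.05. Their median was 0.62. Their summed signal ranged from 25247 to 49968 in wild type and from 52586 to 53588 on mutant-labelled arrays, while their mean log2 value overlapped, with a wild-type maximum of 10.515 and a mutant-labelled minimum of 10.514. Of 15 smooth muscle and pericyte markers, 14 lay above 0, with a median of 1.21 and 0 called (13 higher at an unadjusted p under 0.05). Their summed signal ranged from 5406 to 12424 in wild type and from 15010 to 18096 on mutant-labelled arrays, and their mean log2 value did not overlap either (7.86 to 9.11 and 9.42 to 9.72). No marker of these lists was at 0, and 1 of them, Clec3b, had means below 100 in both genotypes. Wild-type replicate 3 was the lowest wild-type array in 13 of the 16 and 10 of the 15, and wild-type replicate 1 the highest in 13 and 13. The part of these markers in the result was not tested. In these sorted bulk samples more cells of a type and more RNA per cell cannot be told apart.

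The 12 chondrocyte markers had a median of 0.12, 0 called by limma (2 higher and 1 lower at an unadjusted p under 0.05) and summed signals of 565 to 784 in wild type and 743 to 958 on mutant-labelled arrays. Of the 12, 9 had means below 100 in both genotypes, and the matrix genes Matn1, Matn3 and Epyc read below 16 on every array. Matn4 was brighter, at 205 ± 59.6 in wild type and 230 ± 55.4 on mutant-labelled arrays (SD, n = 3 each), with overlap. Acan was higher on every mutant-labelled array (27.5 ± 3.35 and 61.5 ± 29.5) and Cytl1 was lower (154 ± 55.3 and 84.0 ± 12.7). Sox9, a regulator of cartilage that other lung cells also express, read 49.1, 46.7 and 12.7 in wild type and 245, 124 and 312 on mutant-labelled arrays, and limma did not call it. The 10 hematopoietic markers had a median of -0.40, with 2 higher and 4 lower at an unadjusted p under 0.05. Of them limma called Ms4a1, Ncr1 and Cd79a lower, against 0.511% of all genes. These calls depended on the fit. Dropping array 2 of the wild type left 1 gene called lower among all genes, so the 3 calls cannot all hold there. A replicate block left 0. S100a8, known from neutrophils (2.85 times the wild-type mean), and Itgam, a myeloid integrin (2.43 times), were higher with no overlap. The summed signals of the list overlapped (38549 to 46132 and 38015 to 53679), and its mean log2 values were lower with no overlap (10.77 to 11.14 and 9.93 to 10.53). The 9 endothelial markers had a median of 0.10 and 0 called (1 at an unadjusted p under 0.05), with summed signals of 14639 to 23744 and 17802 to 20002. 

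Of 7 alveolar type 1 markers 7 lay above 0 (median 0.26), and of 6 alveolar type 2 markers 6 lay above 0 (median 0.13). Neither list overlapped in summed signal, with 17268 to 21005 in wild type and 22266 to 26295 on mutant-labelled arrays for type 1 and 62410 to 71993 and 74414 to 79336 for type 2. Of 9 airway markers 7 lay above 0 (median 0.08), and of 3 Schwann cell markers 3 (median 0.17), and both lists overlapped in summed signal. Of 6 mesothelial markers 3 lay above 0 (median 0.02), and their summed signal was lower on mutant-labelled arrays with no overlap (7151 to 8241 and 6636 to 6722). Krt19, the brightest of the 6, weighs most in that sum, with 5293 ± 652 in wild type and 3688 ± 731 on mutant-labelled arrays (SD, n = 3 each). The mean log2 value of the mesothelial list overlapped (9.08 to 9.27 and 9.05 to 9.40). In these lists limma called 0 genes, and at an unadjusted p under 0.05 they held, in the order given, 2, 0, 3, 0 and 1 genes. The part of these markers in the collagen values was not tested.

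**Figure D4:**
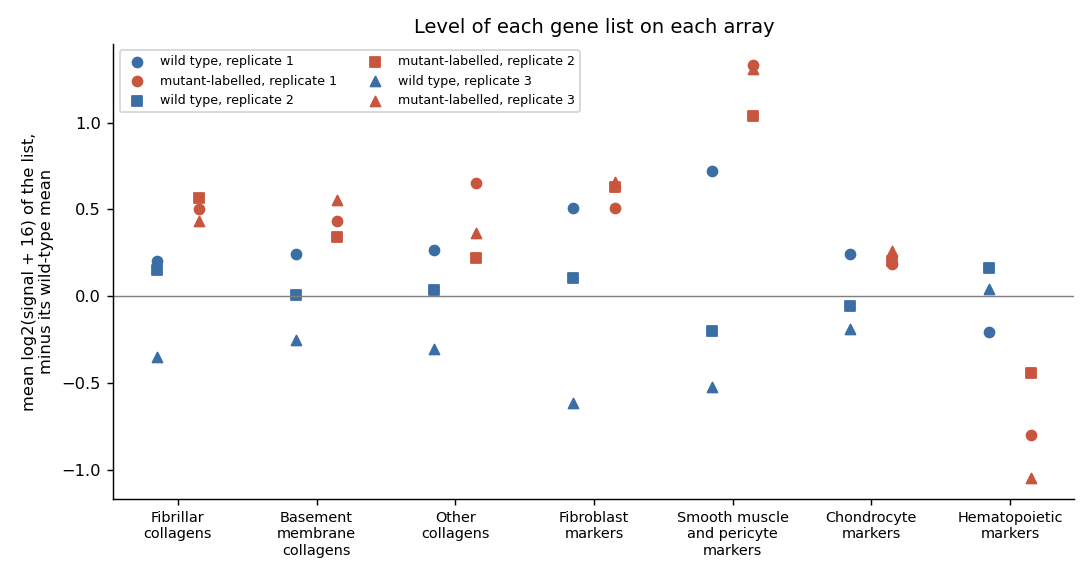
Mean log2(signal + 16) of each gene list on each array, set to 0 at the mean of the wild-type arrays, for the 3 collagen classes and 4 lists of cell type markers. Blue points are wild-type and red points mutant-labelled arrays, and the shape gives the replicate. Wild-type replicate 3, the blue triangle, is the lowest array in the 3 collagen classes and in the fibroblast, smooth muscle and chondrocyte lists.

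The genes of enzymes that fold and modify collagen chains lay mostly below 0. Of 17 measured genes of this list, limma called 0, with 0 higher and 1 lower at an unadjusted p under 0.05, 12 lay below 0 and the median was -0.13. P4ha1, a catalytic subunit of the prolyl hydroxylase that stabilises collagen trimers, read 2390, 2270 and 2583 in wild type and 1616, 1549 and 1498 on mutant-labelled arrays. All mutant-labelled arrays were lower, with a log2 difference of -0.63 ± 0.15 (SE, n = 3 each, limma adjusted p = 0.126). P3h4 and P3h2, which act in the modification of prolines and lysines, gave -0.72 and -0.67, and the isomerase gene Fkbp14 gave 0.59, all with overlap. The collagen chaperone gene Serpinh1 overlapped between the genotypes, with a difference of -0.13.

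Of 11 measured genes of a list for collagen processing and cross-linking, limma called 0, with 1 higher and 0 lower at an unadjusted p under 0.05. Loxl1, a cross-linking enzyme of elastin and collagen, read 1202, 981 and 469 in wild type and 1952, 1951 and 2036 on mutant-labelled arrays, and the log2 difference was 1.25 ± 0.34 (SE, n = 3 each, limma adjusted p = 0.163). Lox, its relative, read 1894, 920 and 174 against 3117, 1923 and 1552, and its spread in wild type was wide, with a difference of 1.60 ± 0.79 (adjusted p = 0.418). The procollagen proteinase gene Bmp1 gave 0.42 and Loxl3 gave 0.39. The list had 10 genes above 0 and a median of 0.39.

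Of 14 partners of collagen fibres, 13 lay above 0, with a median of 0.74 and 0 called by limma (8 higher and 0 lower at an unadjusted p under 0.05). Eln, which encodes elastin, read 2465, 2284 and 1844 in wild type and 3764, 5881 and 4997 on mutant-labelled arrays, and the log2 difference was 1.13 ± 0.22 (SE, n = 3 each, limma adjusted p = 0.0794). The matrix proteins Thbs1, Fn1 and Thbs2 gave 0.96, 0.97 and 0.93, with no overlap in any of them. These genes were named for their small p, which goes with a lack of overlap. In the list of 14, 5 genes were higher with no overlap and 0 lower, against 10.4% and 10.0% of all genes.

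Of 14 laminins, nidogens and proteoglycans, the partners of type IV collagen in basement membranes, 13 lay above 0. The median was 0.66, with 0 called by limma, 8 higher and 0 lower at an unadjusted p under 0.05. The laminin chain gene Lamc3 read 113, 85.2 and 84.8 in wild type and 210, 217 and 279 on mutant-labelled arrays, and the log2 difference was 1.19 ± 0.19 (SE, n = 3 each, limma adjusted p = 0.0508). Lamb3, a laminin chain of epithelium, gave 1.39, Lamc1 gave 0.79 and Lamb2 gave 0.69, again with no overlap and again named for their small p. In this list of 14, 9 genes were higher with no overlap and 1 lower, against 10.4% and 10.0% of all genes.

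Receptors of collagen on the cell surface gave small differences. Of 10 measured, limma called 0 (0 at an unadjusted p under 0.05), and the median was 0.19. Mrc2, an endocytic collagen receptor, gave 0.67, Ddr2 and Ddr1, receptor kinases that bind collagen, 0.41 and 0.29, and Cd44 0.22. Of 12 genes of TGF-beta signalling, a pathway known to raise collagen transcription, limma called 0 (1 higher and 0 lower at an unadjusted p under 0.05), with a median of 0.32. Ltbp1, which holds latent TGF-beta in the matrix, gave 0.79, Ccn2 1.11, Tgfbr3 0.77 and Ltbp2 0.41, while Tgfb1 gave -0.25.

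**Figure D5:**
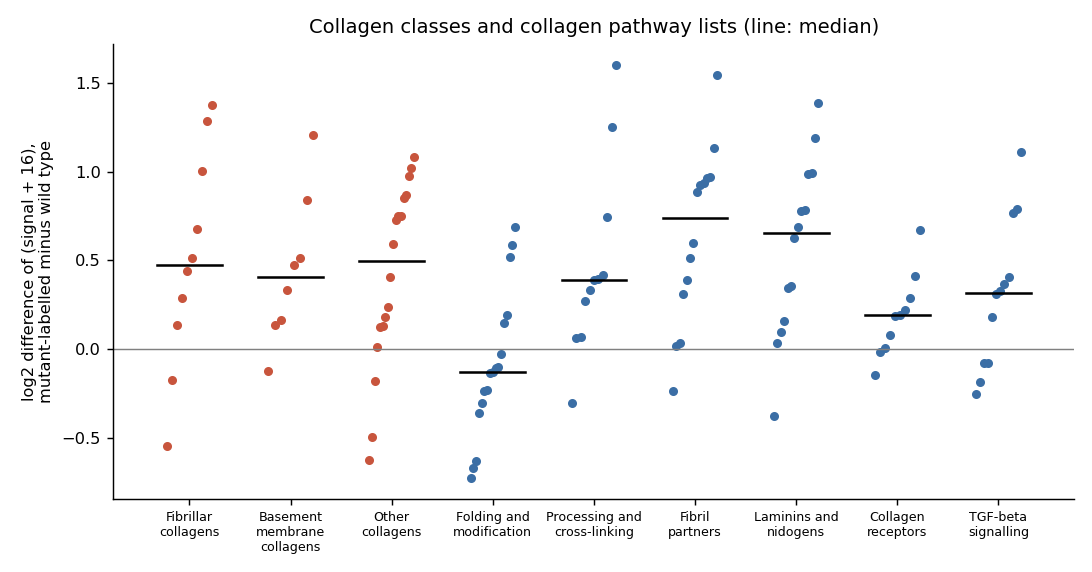
Log2 difference of (signal + 16), mutant-labelled minus wild type, of each gene in the 3 collagen classes (red) and in 6 lists of collagen pathway genes (blue), with the median of each list as a black line. The medians of the collagen classes lie between 0.40 and 0.50, that of the folding and modification list at -0.13 and that of the fibril partners at 0.74.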

How the data were processed

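Sorted mouse lung cells were measured on 6 arrays, 3 per genotype. The values that the authors deposited are linear intensities, 1 for each probe set and array. The submitters' processing notes name Affymetrix Expression Console 1.1. How probe sets were summarised and whether detection calls were made is not given in the sources used here. Equal trimmed means show a scaling, which cannot reveal a shift of all genes.

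No further scaling was applied before taking log2(signal + 16). Of 45101 probe sets, 64 controls, 932 with several gene symbols and 9160 without one were left out. Where a gene had several probe sets (9010 genes), the brightest was used. Genotypes were compared with limma 3.58.1 (lmFit, eBayes, no covariate; R 4.3.3), tested on simulated data, and all adjusted p values, SE and 95% intervals come from it. Its prior had 2.93 degrees of freedom. The number of arrays limits the precision.

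All 36 collagen genes are named. Of each other pathway list, up to 4 genes with the smallest p are named. Serpinh1, Tgfb1 and the single marker genes were chosen after their values were seen. The members and lists were chosen with earlier results of these data known, so lists are described by counts and medians without a test. Of 86 pathway list entries 78 were measured, and the rest were not analysed here. Old symbols were matched through a RefSeq table of GRCm38.p6. Alternatives covered offsets, scaling, filters, probe sets, the prior, array weights, a replicate block and leaving out each array. Figures were drawn with matplotlib 3.10.9.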

Additional observations from a re-analysis of the deposited data

How the results depend on the processing

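Of the 36 collagen genes, 30 kept the sign of their log2 difference in the 12 alternatives that could change it for every gene (2 offsets, quantile normalization, median centring, the mean of probe sets, array weights and leaving out each of 6 arrays), and 26 were above 0 in all of these. The medians of the 3 collagen classes stayed above 0 in every setting, and the fibrillar median was 1.00 among genes above the median level. That filter kept only Col1a1, Col1a2, Col3a1, Col5a1 and Col5a2 of the fibrillar class. Their log2 differences did not change, so the higher median reflects the genes left out. The counts of called genes changed. With an offset of 1, limma called 33 genes, 0 of them collagens (12 at an unadjusted p under 0.05), and with an offset of 64 it called 265, with 2 collagens and 2 pathway genes. Quantile normalization left 0 collagens (13 unadjusted) and 1 pathway gene. Median centring, under which the median of all genes was 0.10 in place of 0.0059, gave 120 higher and 88 lower against 75 and 93, with 2 collagens and 2 pathway genes. Among genes above the median level 284 were called, with 3 collagens and 5 pathway genes, and with the trend and robust prior 438, with 4 collagens and 7 pathway genes. Array weights gave 1 pathway gene. At an adjusted p under 0.1, 455 genes and 3 collagens were called. The numbers were not taken as pairs, since the labels state no pairing. Same-numbered arrays correlated in their deviations from the group means at 0.0735, 0.0485 and 0.0319. Differently numbered arrays lay lower, between -0.0568 and 0.00138. Deviations from a group mean cancel within the group, so positive values of same-numbered arrays push the others down. This contrast cannot decide the question, and a shared structure of the replicates is not excluded. A fit with replicate numbers as a block called 0 genes (2611 at an unadjusted p under 0.05, 18 of them collagens). Leaving out 1 array at a time left 2 to 76 called genes and 0 collagens, with 7 to 17 at an unadjusted p under 0.05. Over these fits the adjusted p of Col1a1 ranged from 0.0725 to 0.158, and the class medians from 0.33 to 0.60 (fibrillar), 0.29 to 0.53 (basement membrane) and 0.285 to 0.59 (other). Signs turned in genes near 0: Col9a1 was -0.032 with the mean of probe sets and Col9a3 0.064 with array weights. With arrays left out, Col5a3 ranged from -0.43 to 0.17, Col9a2 from -0.41 to 0.46, Col9a3 from -0.89 to 0.35, Col10a1 from -0.23 to 0.43 and Col15a1 from -0.067 to 0.38. Signals near the offset limit the dim genes. The cause of these changes was not tested.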
